A study of Homo sapiens with 3 samples.

Results

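The liver-enriched miRNAs hsa-miR-122, hsa-miR-192, hsa-miR-194 and hsa-miR-215 were followed in RNA bound to Argonaute2 (Ago2) in Hep G2, a cell line from a human liver tumour, which is known for little miR-122. They are 4 of the 851 human miRNA names on the array and were picked out by their exact names, with earlier results of these data known. Ago2 carries the miRNA guide strand within the RNA-induced silencing complex, and the immunoprecipitate (Ago2-IP) therefore samples the miRNAs loaded for silencing. Of the 3 groups of the study, 1 was left non-treated and the other two were transfected with a mimic, either miR-195 or miR-497, at 5 nM, with the Ago2-IP performed at 24 hours. Each group held 1 array, labelled from 10 ng of Ago2-IP RNA in 1 colour (Cy3), so no difference between groups could be tested. The comparison cells were not transfected at all, and the effect of transfection cannot be told apart from that of the mimic. RNA from whole cells was not analysed here, and the values describe the content of the immunoprecipitate and not enrichment over the cell.

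miR-122 is the most abundant miRNA of the normal hepatocyte, where it acts on cholesterol metabolism and is used by hepatitis C virus. miR-192 and miR-194 are made from 1 primary transcript and miR-215 and miR-194 from another, and these miRNAs are known from liver, intestine and kidney, with hepatocyte nuclear factors among their regulators and p53 among the activators. In the RefSeq annotation (GRCh38.p14) MIR122 lies within MIR122HG, while MIR192 and MIR194-2 neighbour each other within MIR194-2HG. MIR215 and MIR194-1 neighbour each other and overlap IARS2.

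The mature sequences are shown because they decide which of the names can be told apart on an array and which share targets. They were taken from RefSeq (GRCh38.p14), where all 4 names were matched through their 5p arms, and the seed, bases 2 to 8 from the 5′ end, is in capitals. The last line is the passenger strand of miR-192, which returns below.
hsa-miR-122: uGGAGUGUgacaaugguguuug
hsa-miR-192: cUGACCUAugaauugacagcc
hsa-miR-215: aUGACCUAugaauugacagac
hsa-miR-194: uGUAACAGcaacuccaugugga
hsa-miR-192*: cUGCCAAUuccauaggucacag
The miR-122 sequence lies at chr18:58451088-58451109 on the plus strand, miR-192 at chr11:64891203-64891223 and miR-215 at chr1:220117916-220117936, both on the minus strand. The miR-194 sequence is encoded at chr1:220118206-220118227 by MIR194-1 and at chr11:64891404-64891425 by MIR194-2, both on the minus strand. The mature products of these genes are identical, and the array signal of hsa-miR-194 cannot be assigned to either locus. The passenger strand of miR-192 lies at chr11:64891159-64891180 on the minus strand.

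miR-192 and miR-215 share a seed, which no other mature miRNA of the 2370 in the table carries. They are identical at 19 of 21 bases and differ by C1A and C20A, counted from the 5′ end with the base of miR-192 first. The files give no probe sequences, so how much of either signal came from the other miRNA was not tested, and the values of this pair are uncertain to that extent. The seeds of miR-122 and miR-194 were not shared with any other mature miRNA in the table.

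miR-122 was not detected in the Ago2-IP of these cells, while miR-192, miR-194 and miR-215 were measured on every array. Signals are background-subtracted spot intensities, averaged over the spots of a probe and summed over the probes of a name, of which the 4 miRNAs have 2 each. A probe counted as measured when more than 50% of its spots were well above background by the flag of the scanner software. In bulk RNA, fewer cells that carry a miRNA and fewer copies per cell cannot be told apart.

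None of the 48 spots of hsa-miR-122 on the 3 arrays was well above background. Its summed signal was 3.62 units in non-treated cells, -0.24 units after miR-195 and 5.62 units after miR-497, with SDs between spots of 3.39, 4.32 and 3.46 units. The spots ranged from -5.45 to 9.85 units over the arrays. Negative control spots, 434 per array, averaged 4.35 ± 4.26 (SD) units, 4.01 ± 4.22 units and 4.85 ± 4.36 units in the same order. The spots of hsa-miR-122 thus overlapped the negative controls, and 47 of the 48 lay within their range on the same array. The software marked 31.25% of them as positive and significant, compared with 55.8% of 1302 negative control spots. The dimmest human miRNA that was measured had a signal of 11.1, 23.7 and 19.1 units on the non-treated, miR-195 and miR-497 arrays, and any signal of hsa-miR-122 was below these levels. Such a level corresponds to 0.00466%, 0.00900% and 0.0179% of the summed human signal. No fold between arrays can be given for hsa-miR-122. No array held a sample in which its probes were bright, and their performance was therefore not checked.

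The passenger strands hsa-miR-122* and hsa-miR-194* were not measured either. Over the arrays, hsa-miR-122* had 1 of 48 spots well above background, an outlier that was left out, and hsa-miR-194* had 0 of 48. Of the 4 liver-enriched names, 3 were thus measured on every array, compared with 118 of all 851 human names, and the one most typical of the hepatocyte was not. The 3 are not independent, since miR-192 and miR-215 are nearly identical and miR-194 shares a transcript with each. They are also known from intestine and kidney and were chosen with earlier results known, so this count is no check of the liver label.

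**Figure D1:**
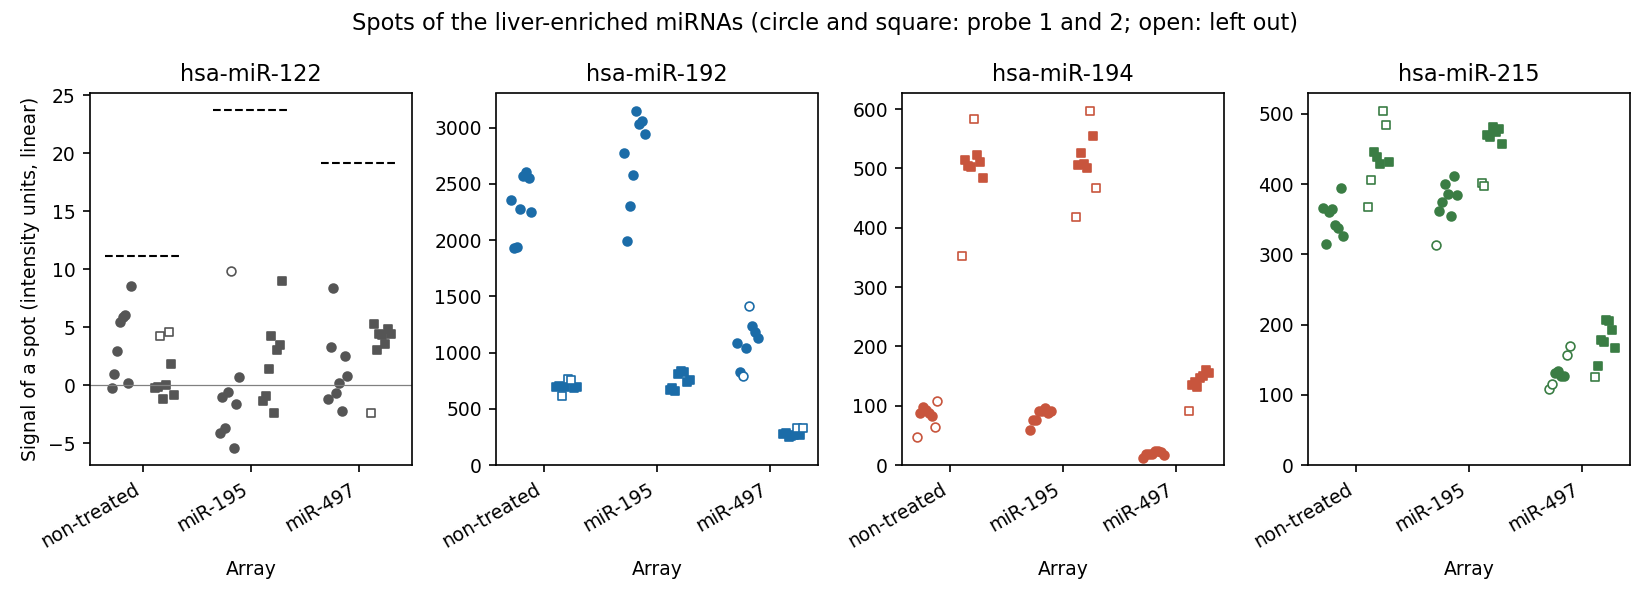
Signal of every spot of the 4 miRNAs in intensity units on a linear axis, for each array, with its own axis for each miRNA. Circles and squares are the 2 probes, open symbols were left out as outliers, and the dashed lines in the hsa-miR-122 panel are the signal, summed over probes, of the dimmest human miRNA measured on that array (11.1, 23.7 and 19.1 units), above all of its spots.

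hsa-miR-192, the guide strand of MIR192, had a signal of 3003 ± 268 (SD between spots, 13 spots) units on the non-treated array. After miR-195 it was 3478 ± 414 (16 spots) units and after miR-497 it was 1351 ± 144 (12 spots) units. The spots of its brighter probe, without those left out as outliers here and in the following, ran from 1930 to 2608 units with a median of 2318 in non-treated cells, from 1994 to 3146 with a median of 2858 after miR-195 and from 831 to 1238 with a median of 1107 after miR-497. Those of the other probe ran from 687 to 699 units, from 660 to 836 and from 248 to 284 in the same order. Both probes were thus lowest after miR-497 without overlap, while the spots of the non-treated and miR-195 arrays overlapped.

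hsa-miR-215, which shares the seed of miR-192 and is known as a p53-induced inhibitor of the cell cycle, had a signal of 787 ± 26.7 (12 spots) units in non-treated cells, 853 ± 22.2 (13 spots) units after miR-195 and 311 ± 23.4 (11 spots) units after miR-497. Spots of its first probe lay between 314 and 395 units, between 355 and 412 units and between 127 and 134 units on these arrays. Spots of the second probe lay between 429 and 445 units, between 457 and 481 units and between 141 and 207 units. The used spots of the second probe did not overlap between any of the arrays, whereas those of the first probe overlapped between the non-treated and miR-195 arrays. This separation of the second probe rested on the outlier filter. When the outlier spots were included, it ran from 368 to 504 units in non-treated cells and from 397 to 481 units after miR-195, with overlap. How many probes of the array lacked such overlap was not counted.

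hsa-miR-194 had a signal of 596 ± 14.1 (11 spots) units in non-treated cells, 602 ± 25.4 (13 spots) units after miR-195 and 165 ± 11.5 (15 spots) units after miR-497. The spots of its second probe lay between 484 and 522 units, between 501 and 555 units and between 131 and 161 units. Those of its dim first probe lay between 83.6 and 97.6 units, between 58.6 and 96.5 units and between 12.5 and 23.5 units, and after miR-497 6 of its 8 spots were well above background. The non-treated and miR-195 arrays overlapped on both probes, and the miR-497 array stood below them.

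The miR-497 array was dimmer as a whole, with 121 human miRNAs measured, compared with 168 on the non-treated and 153 on the miR-195 array. Its 75th percentile over the 183 probes measured on all arrays was 263 units, compared with 827 and 778 units. The part of this dimness in the lower member signals cannot be told apart from a change in the cells with 1 array per group. Levels were therefore compared in 2 ways that take out a single factor of brightness per array, as shares of the array and after division by that percentile. Neither takes out an error in the background, which weighs more on dim probes, and with the normexp background correction the share of hsa-miR-194 on the miR-497 array was 0.233%, compared with 0.155% without it. This correction adds an offset of 50 units to every spot, which by itself raises dim signals relatively more. The parts of the offset and of the background in this change were not told apart.

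The 3 measured miRNAs together made up 1.84% of the summed human miRNA signal in non-treated cells, 1.88% after miR-195 and 1.71% after miR-497. These are shares of brightness. Probes differ in brightness per molecule, so the shares are compared between arrays for the same miRNA and are not shares of molecules. hsa-miR-192 took 1.26 ± 0.112% (SD between spots) of the signal in non-treated cells, 1.32 ± 0.158% after miR-195 and 1.27 ± 0.135% after miR-497. hsa-miR-215 took 0.330 ± 0.0112%, 0.324 ± 0.00846% and 0.291 ± 0.0220%. hsa-miR-194 took 0.250 ± 0.00592%, 0.229 ± 0.00967% and 0.155 ± 0.0108%, the lowest on the miR-497 array. The transfected miRNAs with their passenger strands accounted for 18.6% of the signal after miR-195 and 7.69% after miR-497, compared with 0.0190% in non-treated cells. When they were left out, the summed share of the 3 miRNAs was 1.84%, 2.30% and 1.86%. Under this denominator hsa-miR-192 took 1.26%, 1.62% and 1.37%, so that its shares on the non-treated and miR-195 arrays, which with the mimics included differed by less than the SD, differed by more. hsa-miR-194 took 0.250%, 0.281% and 0.168%, and its order on the non-treated and miR-195 arrays turned around. hsa-miR-215 was then highest on the miR-195 array, at 0.399%.

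**Figure D2:**
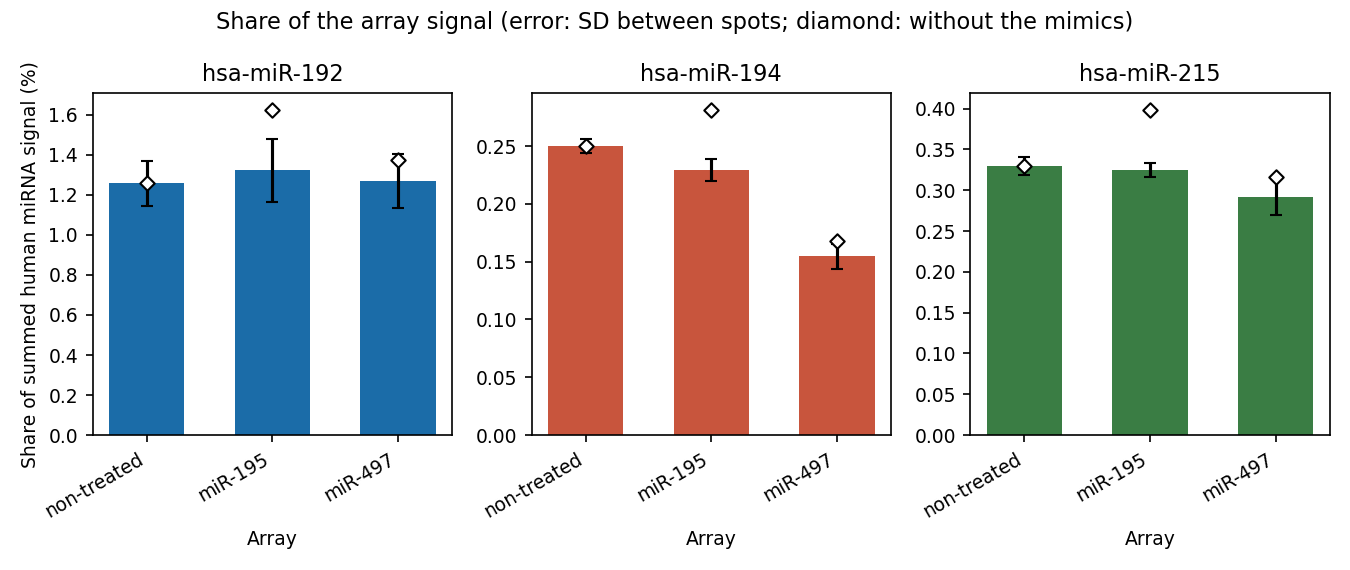
Share of the summed human miRNA signal in percent on each array, with a separate axis from 0 for each miRNA. Bars are the shares with SDs between spots and diamonds the shares without the mimics and their passenger strands. The bars of hsa-miR-192 lie between 1.26% and 1.32% and its diamonds between 1.26% and 1.62%, and hsa-miR-194 is lowest on the miR-497 array by bar (0.155%) and by diamond (0.168%).

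After scaling, none of the 3 miRNAs differed by 2-fold between any pair of arrays. On the miR-195 array all 3 were slightly higher than in non-treated cells, by 0.30 log2 units for hsa-miR-192 (spot SD 0.21), 0.20 for hsa-miR-215 (spot SD 0.062) and 0.10 for hsa-miR-194 (spot SD 0.070). The spot SD of a difference combines the spread between spots of both arrays and covers error within the arrays only. It is the spread of single spots and is larger than the standard error of their means. Past 2-fold were 0 of the 3 miRNAs, compared with 3.40% of 147 human miRNAs without the mimics (2.72% higher and 0.680% lower), and 0 among 3 is close to that background. The median over the 147 miRNAs was -0.01 and the SD 0.37, and 16, 36 and 52 of them had a larger difference than hsa-miR-192, hsa-miR-215 and hsa-miR-194. The sign for all 3 followed the scaling, at -0.24, -0.33 and -0.44 for hsa-miR-192, hsa-miR-215 and hsa-miR-194 with a percentile over all non-control probes. This scaling moved the median of all miRNAs by -0.54. It shifts every miRNA by the same amount, so their positions relative to the median could not change.

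On the miR-497 array the members went different ways relative to the non-treated array. hsa-miR-192 was 0.50 log2 units higher (1.41-fold, spot SD 0.20) and hsa-miR-215 was 0.31 higher (1.24-fold, spot SD 0.12), whereas hsa-miR-194 stood at -0.20 (spot SD 0.11). By share of the signal, hsa-miR-192 was at 1.27% compared with 1.26%, and hsa-miR-215 was lower, at 0.291% compared with 0.330%. Again 0 of the 3 passed 2-fold, compared with 3.39% of 118 human miRNAs, all of them higher. Of these 118, with a median of 0.03 and an SD of 0.41, 5 had a larger difference than hsa-miR-192, 20 than hsa-miR-215 and 97 than hsa-miR-194. Without scaling the differences were -1.15, -1.34 and -1.85 for hsa-miR-192, hsa-miR-215 and hsa-miR-194. All 3 then passed 2-fold downwards, with 113 of the 118 human miRNAs past it. The direction for hsa-miR-192 and hsa-miR-215 therefore rested on the scaling and also turned with spike-in scaling, at -0.81 and -0.99. These scalings moved the median of all miRNAs by -1.65 and -1.31. They shift every miRNA by the same amount, so a position above or below the median could not change under them. With the normexp background correction hsa-miR-192 and hsa-miR-215 both stood at 0.37 and hsa-miR-194 at 0.11, all below the median of 0.46 over all miRNAs. The part of its offset of 50 units in these values was not tested.

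Between the arrays of the mimics, hsa-miR-192 differed by 0.20 log2 units (spot SD 0.23) and hsa-miR-215 by 0.11 (spot SD 0.12), both within the spot SD. Both were larger than the standard error over spots, 0.087 and 0.044, which covers no variation between arrays. hsa-miR-194 was at -0.30 (spot SD 0.12) on the miR-497 array. Past 2-fold were 0 of the 3, compared with 1.71% of 117 human miRNAs, and 106 of the 117 had a larger difference than hsa-miR-194. Without scaling the differences were -1.36, -1.46 and -1.87 for hsa-miR-192, hsa-miR-215 and hsa-miR-194, where the median of all miRNAs moved by -1.56. The direction thus turned for hsa-miR-192 and hsa-miR-215, while hsa-miR-194 was below 0 with scaling too. With the normexp correction the value of hsa-miR-194 was 0.029, no longer below 0, with a median of 0.46 over all miRNAs. The part of the offset in this change was not tested either.

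The scaled levels gave the order of the arrays for each miRNA. hsa-miR-192 stood at 1.86 log2 units in non-treated cells, 2.16 after miR-195 and 2.36 after miR-497, of which the last pair did not differ beyond the spot SD. hsa-miR-215 followed the same order, at -0.07, 0.13 and 0.24, and again the last pair did not differ beyond it. hsa-miR-194 ran from -0.67 after miR-497 over -0.47 in non-treated cells to -0.37 after miR-195, with both steps larger than the spot SD. These orders depended on the processing. For hsa-miR-194, miR-195 minus non-treated was -0.12 with quantile normalization, and miR-497 minus non-treated was 0.11 with the normexp correction. By share, hsa-miR-194 took 0.250% in non-treated cells and 0.229% after miR-195. The share of hsa-miR-215 ran opposite to its scaled levels, at 0.330% in non-treated cells, 0.324% after miR-195 and 0.291% after miR-497. Without the mimics it was 0.330%, 0.399% and 0.316%. The share of hsa-miR-192 was 1.26%, 1.32% and 1.27% with the mimics and 1.26%, 1.62% and 1.37% without them, highest after miR-195 by both. Without scaling, each of these miRNAs was lowest on the miR-497 array.

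**Figure D3:**
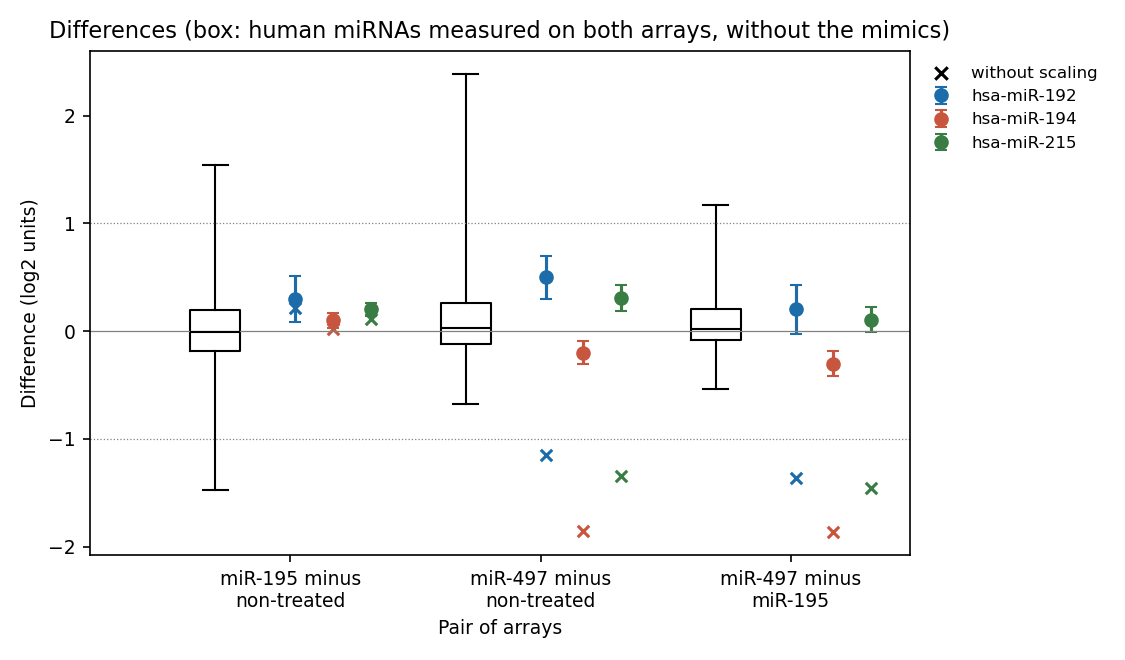
Differences in log2 units for the 3 pairs of arrays. Circles are scaled differences of the miRNAs with the spot SD, crosses the same differences without scaling, and boxes the human miRNAs measured on both arrays without the mimics (line, median; box, middle 50%; whiskers, lowest and highest), with dotted lines at 2-fold. The circles lie between -0.30 and 0.50, whereas the crosses of the miR-497 array lie between -1.87 and -1.15.

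miR-192 and miR-194 are processed from 1 primary transcript of MIR192 and MIR194-2, and the difference between them was compared because it is free of any scaling by a single factor, with the reservation that hsa-miR-194 also holds the product of MIR194-1. The comparisons with hsa-miR-194 were added after the data were seen. From the non-treated to the miR-497 array, hsa-miR-192 and hsa-miR-194 moved apart by 0.70 log2 units (spot SD 0.23), and hsa-miR-215 and hsa-miR-194 by 0.51 (spot SD 0.16). From the miR-195 to the miR-497 array the values were 0.50 (spot SD 0.26) and 0.41 (spot SD 0.16). From the non-treated to the miR-195 array they were 0.20 (spot SD 0.23) and 0.10 (spot SD 0.093). hsa-miR-192 and hsa-miR-215 moved apart by 0.19 (spot SD 0.23) on the miR-497 array, within the spot SD. With the normexp correction the contrast of hsa-miR-192 and hsa-miR-194 was 0.26 from the non-treated to the miR-497 array and 0.053 from the miR-195 to the miR-497 array, and that of hsa-miR-215 and hsa-miR-194 was 0.26 and 0.17. The offset of 50 units in this correction by itself draws log2 differences of dim probes towards 0. These smaller contrasts are therefore no test of an error in the background. These comparisons share arrays, and all but that of hsa-miR-192 with hsa-miR-215 share hsa-miR-194, so they are not independent of each other.

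Both probes of each miRNA gave the same sign after miR-497. Relative to non-treated cells the scaled differences of the first and second probe were 0.56 and 0.27 for hsa-miR-192, 0.22 and 0.38 for hsa-miR-215 and -0.55 and -0.15 for hsa-miR-194. Across 118 human miRNAs, the scaled difference and the scaled level in non-treated cells gave r = 0.078 (Pearson) and rho = 0.21 (Spearman), a description over miRNAs that share the same arrays, with the non-treated array in both measures. The part of brightness in the values of hsa-miR-194 was not tested.

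**Figure D4:**
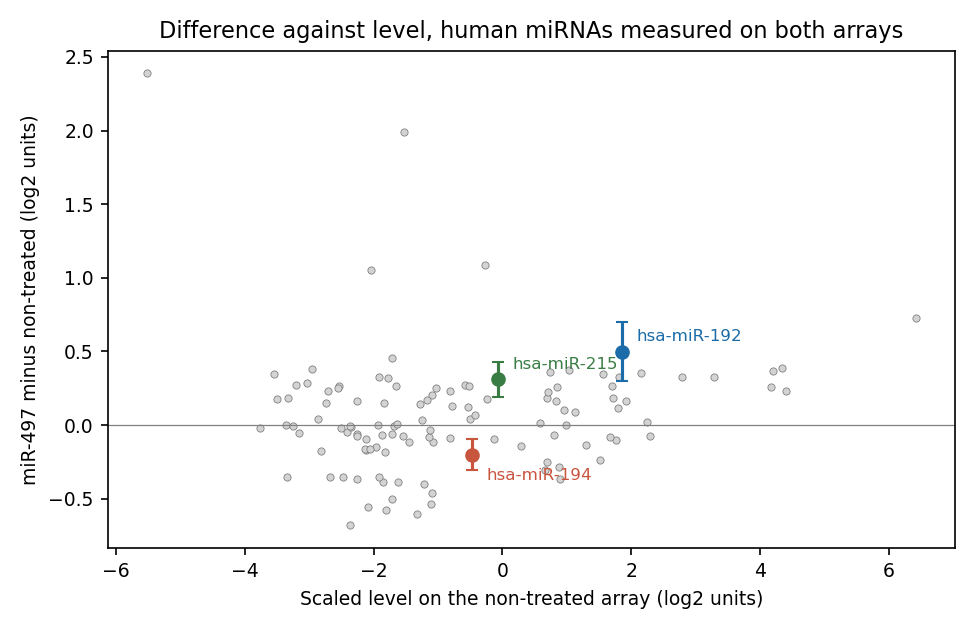
Scaled difference, miR-497 minus non-treated, against the scaled level on the non-treated array, both in log2 units, for 118 human miRNAs without the mimics. Coloured points are the 3 measured miRNAs with the spot SD. hsa-miR-192 at 0.50 lies near the upper edge of the miRNAs of similar level and hsa-miR-194 at -0.20 below 0.

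miRNAs with the most similar course were listed by the distance between scaled log2 values over the 3 arrays, each centred on its own mean, among 116 other human miRNAs measured on all arrays. For hsa-miR-192 the nearest were hsa-miR-483-5p (distance 0.031), hsa-miR-151-5p (0.10) and hsa-miR-130a (0.11), and hsa-miR-215 stood at position 8 (0.13). For hsa-miR-215 they were hsa-miR-130a (0.032), hsa-miR-16 (0.032) and hsa-miR-130b (0.035), with hsa-miR-192 at position 28 (0.13). For hsa-miR-194 they were hsa-miR-320a (0.063), hsa-miR-532-5p (0.066) and hsa-miR-30e (0.11), and hsa-miR-192 stood at position 102 (0.51), beyond the median distance of 0.32. With 3 arrays such closeness is a description.

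The passenger strand hsa-miR-192*, printed above, was at the edge of detection. Its second probe gave 25.1 ± 4.06 (SD, 8 spots) units in non-treated cells, with all 8 spots well above background, 21.0 ± 3.88 units after miR-195, with 4 of 8, and 7.73 ± 4.02 units after miR-497, with 0. Its first probe averaged between -0.62 and 0.62 units. By the rule above hsa-miR-192* was thus measured on the non-treated array alone of the 3, and no fold is given because its signal after either mimic was below that of the dimmest miRNA measured there.

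Other miRNAs known from liver or liver cell lines were counted for comparison, from a list of 10 names. Of the 10, 8 were measured in non-treated cells, 8 after miR-195 and 7 after miR-497, compared with 168, 153 and 121 of all 851 human names. Those measured on every array were hsa-miR-101, hsa-miR-378, hsa-miR-483-3p, hsa-miR-483-5p, hsa-miR-200a, hsa-miR-200b and hsa-miR-429. How far these names are particular to liver was not tested, and the count is no measure of liver character. hsa-miR-885-5p, a miRNA of liver, and hsa-miR-422a were not measured on any array, with signals from 1.43 to 21.0 units and from -29.7 to -19.1 units. hsa-miR-148a, a hepatocyte miRNA, was measured at 72.5 and 75.5 units in non-treated cells and after miR-195, and not after miR-497, at 22.7 units. Scaled differences of the list ran from -0.30 to 0.27 log2 units on the miR-195 array (median 0.16, compared with -0.01 over all miRNAs) and from -0.35 to 0.46 on the miR-497 array (median 0.17, compared with 0.03), and 0 of them passed 2-fold in either comparison, with 3.40% and 3.39% of all miRNAs past it.

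Markers of other cell types were examined as a check of the label. Although the label names a liver line, 2 of 6 miRNAs of blood cells were measured on every array, hsa-miR-142-3p at 1521, 1244 and 397 units and hsa-miR-142-5p at 191, 182 and 57.1 units on the non-treated, miR-195 and miR-497 arrays, while hsa-miR-223, hsa-miR-451, hsa-miR-144 and hsa-miR-150 were not. The miRNAs of endothelium (2 names), muscle (4) and neurons (2) were not measured on any array. Of 5 miRNAs of fibroblasts and stellate cells, hsa-miR-199a-3p was measured on the non-treated array at 32.8 units and none on the others. The summed signal of the blood cell list was 1730, 1450 and 456 units in the same order of arrays, and its part in the values of the liver-enriched miRNAs was not tested.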

How the data were processed

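Ago2-IP RNA was hybridised to 3 Agilent miRNA arrays in 1 colour, 1 array for each of the non-treated, miR-195 and miR-497 groups. The deposited scanner files hold spot intensity on a linear scale, made by the authors with Agilent Feature Extraction 10.7.1.1 (per the labels and file headers), which subtracted the local background and the surface trend within each array and did not scale between arrays. The authors also deposited log2 values per miRNA from GeneSpring, with a floor of 0, used here as an alternative. The file header names a 75th percentile shift, but all 9 values of the 3 measured members equalled the log2 of the software total within 0.001, so these values carry no scaling between arrays.

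Spots with non-uniformity or population outlier flags were left out, the mean over spots was taken per probe and summed per miRNA, and sums were divided by the 75th percentile of the 183 probes measured on all arrays and converted to log2 (Python 3.11.15, numpy 2.4.6, pandas 2.3.3). No member spot was saturated. With 1 array per group no test was possible, the number of arrays limits the precision, and differences are described against 2-fold. The summary was tested on simulated data with changes larger than 2-fold and no background offset between arrays. That test does not cover scaled differences as small as those of the members. The arrays came from 1 scan per the file headers. Repeat arrays named in the methods are not analysed here.

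The 4 miRNAs and the lists were chosen with earlier results of these data known. Named were the members, their passenger strands, the listed liver-related miRNAs, and per member the 3 miRNAs nearest in course. Single markers of other cell types were named where measured, after their values were seen. Alternatives covered scaling, background (normexp with an offset of 50, limma 3.58.1), summary, spots, detection, thresholds and the deposited table.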

Additional observations from a re-analysis of the deposited data

Results flagged for a closer look

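hsa-miR-192* had a log2 value of 10.81 on the miR-195 array in the deposited table, above the 10.62 of non-treated cells, and stood out because this table enters none of the main comparisons. The value on the miR-497 array was 0, the floor of the table. The values of hsa-miR-192 in the same table were 10.81, 10.61 and 9.49 on the miR-195, non-treated and miR-497 arrays. The software total of hsa-miR-192* was 1800.31 units after miR-195 and 1572.73 units in non-treated cells, which exceeded the totals of hsa-miR-192, 1789.53 and 1559.71 units, by 10.78 and 13.02 units. Its own second probe had a probe total of 10.78 units on the miR-195 array and 13.02 units on the non-treated array, and its first probe 0.321 and -0.324 units. On the miR-497 array hsa-miR-192* was given the value for undetected miRNAs, with 4.10 units from its second probe. The totals of hsa-miR-192, hsa-miR-194 and hsa-miR-215 each equalled the sum of their own probe totals within 0.001 units. On the log2 scale its own second probe total was 3.43 after miR-195 and 3.70 in non-treated cells. The deposited values of hsa-miR-192* after miR-195 and in non-treated cells thus held the total of hsa-miR-192 and are no measure of hsa-miR-192*. Why the totals were formed in this way was not tested.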

How the results depend on the processing

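The number of arrays, 1 per group, limits every comparison, and the spot SD leaves out variation between cultures, immunoprecipitations and arrays. No paired analysis was possible because each group held 1 array. hsa-miR-122 gave no value to recompute. Over the alternatives, 78 of 144 recomputed differences of hsa-miR-192, hsa-miR-194 and hsa-miR-215 moved by less than the spot SD, 66 moved further, and 30 changed sign. Among the contrasts between members, 79 moved by less and 5 further. Scaling by a single factor and the choice of detection rule leave these contrasts as they are. The software totals and the deposited table returned the main values too. Many of the 79 could therefore not move, and the count is no measure of stability. The contrasts of hsa-miR-192 and hsa-miR-215 with hsa-miR-194 were added after seeing the data. Counts of all human miRNAs past 2-fold ranged over the alternatives from 0 to 16 higher and 0 to 9 lower for miR-195 minus non-treated, from 0 to 19 and 0 to 113 for miR-497 minus non-treated, and from 0 to 15 and 0 to 114 for miR-497 minus miR-195. The values that moved further follow, and the cause was not tested.

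When the percentile was taken over every non-control probe, differences were -0.24 for hsa-miR-192, -0.44 for hsa-miR-194 and -0.33 for hsa-miR-215 (miR-195 minus non-treated), and -0.88 for hsa-miR-192, -1.58 for hsa-miR-194 and -1.07 for hsa-miR-215 (miR-497 minus non-treated), and -0.64 for hsa-miR-192, -1.15 for hsa-miR-194 and -0.74 for hsa-miR-215 (miR-497 minus miR-195). Under this setting members 2-fold lower numbered 2 for miR-497 minus non-treated and 1 for miR-497 minus miR-195. The percentile of this setting lay among probes near background. With all spots kept, differences were 0.14 for hsa-miR-215 (miR-195 minus non-treated). Shares were 0.243% for hsa-miR-194 on the non-treated array and 0.316% for hsa-miR-215 on the miR-195 array. The log2 signals over the dimmest miRNA measured were 5.70 for hsa-miR-194 on the non-treated array, 4.60 for hsa-miR-194 on the miR-195 array and 5.07 for hsa-miR-215 on the miR-195 array. With detection in all spots, differences were 0.22 for hsa-miR-194 and 0.32 for hsa-miR-215 (miR-195 minus non-treated). The log2 signals over the dimmest miRNA measured were 7.32 for hsa-miR-192 on the non-treated array, 4.99 for hsa-miR-194 on the non-treated array, 5.39 for hsa-miR-215 on the non-treated array, 5.12 for hsa-miR-215 on the miR-195 array, 5.57 for hsa-miR-192 on the miR-497 array, 2.54 for hsa-miR-194 on the miR-497 array and 3.45 for hsa-miR-215 on the miR-497 array. With detection in at least 1 spot, differences were -0.0085 for hsa-miR-194 and 0.092 for hsa-miR-215 (miR-195 minus non-treated), and 0.27 for hsa-miR-192, -0.43 for hsa-miR-194 and 0.081 for hsa-miR-215 (miR-497 minus non-treated), and -0.42 for hsa-miR-194 and -0.012 for hsa-miR-215 (miR-497 minus miR-195). In the deposited table, differences were 0.0020 for hsa-miR-194 and 0.10 for hsa-miR-215 (miR-195 minus non-treated), and -1.12 for hsa-miR-192, -1.82 for hsa-miR-194 and -1.31 for hsa-miR-215 (miR-497 minus non-treated), and -1.32 for hsa-miR-192, -1.82 for hsa-miR-194 and -1.41 for hsa-miR-215 (miR-497 minus miR-195). Under this setting members 2-fold lower numbered 3 for miR-497 minus non-treated and 3 for miR-497 minus miR-195. With the mean of probe log2 signals, differences were -0.35 for hsa-miR-194 (miR-497 minus non-treated). With median scaling, differences were -0.18 for hsa-miR-194 and 0.23 for hsa-miR-215 (miR-497 minus miR-195). Over the miRNAs measured on all arrays without the mimics, the shares were 1.64% for hsa-miR-192 on the miR-195 array, 0.283% for hsa-miR-194 on the miR-195 array, 0.401% for hsa-miR-215 on the miR-195 array, 0.168% for hsa-miR-194 on the miR-497 array and 0.316% for hsa-miR-215 on the miR-497 array. Without scaling, differences were 0.015 for hsa-miR-194 and 0.12 for hsa-miR-215 (miR-195 minus non-treated), and -1.15 for hsa-miR-192, -1.85 for hsa-miR-194 and -1.34 for hsa-miR-215 (miR-497 minus non-treated), and -1.36 for hsa-miR-192, -1.87 for hsa-miR-194 and -1.46 for hsa-miR-215 (miR-497 minus miR-195). Under this setting members 2-fold lower numbered 3 for miR-497 minus non-treated and 3 for miR-497 minus miR-195. With normexp and an offset of 50, differences were 0.11 for hsa-miR-194 (miR-497 minus non-treated), and 0.029 for hsa-miR-194 (miR-497 minus miR-195). The contrasts miR-497 minus non-treated were 0.26 for hsa-miR-192 minus hsa-miR-194 and 0.26 for hsa-miR-215 minus hsa-miR-194. The contrasts miR-497 minus miR-195 were 0.053 for hsa-miR-192 minus hsa-miR-194 and 0.17 for hsa-miR-215 minus hsa-miR-194. Shares were 0.276% for hsa-miR-194 on the non-treated array, 0.347% for hsa-miR-215 on the non-treated array, 0.256% for hsa-miR-194 on the miR-195 array, 0.343% for hsa-miR-215 on the miR-195 array, 0.233% for hsa-miR-194 on the miR-497 array and 0.351% for hsa-miR-215 on the miR-497 array. With the first probe alone, differences were -0.020 for hsa-miR-194 (miR-195 minus non-treated), and -0.55 for hsa-miR-194 (miR-497 minus non-treated), and -0.53 for hsa-miR-194 (miR-497 minus miR-195). With the second probe alone, differences were 0.27 for hsa-miR-192 (miR-497 minus non-treated). With quantile normalization, differences were -0.12 for hsa-miR-194 and 0.078 for hsa-miR-215 (miR-195 minus non-treated), and 0.27 for hsa-miR-192, -0.41 for hsa-miR-194 and 0 for hsa-miR-215 (miR-497 minus non-treated), and -0.078 for hsa-miR-215 (miR-497 minus miR-195). The contrasts miR-497 minus miR-195 were 0.22 for hsa-miR-215 minus hsa-miR-194. With the software total per miRNA, differences were -0.0048 for hsa-miR-194 and 0.10 for hsa-miR-215 (miR-195 minus non-treated), and 0.17 for hsa-miR-192, -0.53 for hsa-miR-194 and -0.014 for hsa-miR-215 (miR-497 minus non-treated), and -0.52 for hsa-miR-194 and -0.11 for hsa-miR-215 (miR-497 minus miR-195). Shares were 0.977% for hsa-miR-192 on the non-treated array, 0.194% for hsa-miR-194 on the non-treated array, 0.256% for hsa-miR-215 on the non-treated array, 1.11% for hsa-miR-192 on the miR-195 array, 0.192% for hsa-miR-194 on the miR-195 array, 0.271% for hsa-miR-215 on the miR-195 array, 0.813% for hsa-miR-192 on the miR-497 array, 0.0993% for hsa-miR-194 on the miR-497 array and 0.187% for hsa-miR-215 on the miR-497 array. With spike-in scaling, differences were 0.55 for hsa-miR-192, 0.35 for hsa-miR-194 and 0.45 for hsa-miR-215 (miR-195 minus non-treated), and -0.81 for hsa-miR-192, -1.51 for hsa-miR-194 and -0.99 for hsa-miR-215 (miR-497 minus non-treated), and -1.35 for hsa-miR-192, -1.86 for hsa-miR-194 and -1.45 for hsa-miR-215 (miR-497 minus miR-195). Under this setting members 2-fold lower numbered 1 for miR-497 minus non-treated and 3 for miR-497 minus miR-195. Without the mimics and passenger strands, the shares were 1.62% for hsa-miR-192 on the miR-195 array, 0.281% for hsa-miR-194 on the miR-195 array, 0.399% for hsa-miR-215 on the miR-195 array, 0.168% for hsa-miR-194 on the miR-497 array and 0.316% for hsa-miR-215 on the miR-497 array.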
